A study of Mus musculus with 8 samples.

Results

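The livers of vitamin C treated Wrn mutant mice were compared with wild type liver on 4 two-colour Agilent arrays, the arrays whose labels name a vitamin C treated mutant, out of 8 arrays in the series. Each array set total liver RNA of one treated mutant against that of one wild type mouse, and all mice were of the strain C57Bl/6 and 9 months old. The other 4 arrays set mutants without vitamin C against wild type under the same housing, a reversed day of 12 h light and 12 h dark with free access to food and water. The submitters describe the replicates as independent animals, and replicate numbers 1 to 4 on the treated arrays name the same wild type mice as on the untreated arrays. No source used here names the mutant allele, the vitamin C dose, its duration or the sex of the mice. Mutant RNA was labelled with Cy5 on replicates 1 and 2 of both groups and with Cy3 on replicates 3 and 4, and wild type RNA with the other dye. The deposited values are log ratios with no intensity, so neither the level of a transcript nor the detection of hepatocyte markers could be checked.

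Wrn encodes a RecQ helicase and exonuclease that works in DNA replication, repair and telomere maintenance, and its loss in people causes a premature ageing disorder. Mice, unlike people, make their own vitamin C in the liver, with Gulo at the last step, so vitamin C given to a mouse adds to what the liver already makes. Many of the liver genes described here, the sulfotransferases and cytochrome P450 enzymes among them, follow growth hormone, whose signal runs through the transcription factor STAT5 and differs between male and female mice.

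The sources do not settle how the swapped arrays are to be read. Either every value is mutant over wild type, as wild type being the first channel on all arrays would have it, or each value is Cy5 over Cy3, as the titles naming the Cy5 RNA first would have it. In the second case the sign of replicates 3 and 4 has to be turned. Results are given under both readings, called "as deposited" and "turned", and values are as deposited unless their sentence or the opening of their paragraph names the turned reading. The mutant is taken as the likely numerator in each reading. If wild type were the numerator, every sign would be the opposite. The log base is also not given, and values were read as log2. A mean is over 4 arrays and stands with the standard error (SE) of the limma fit.

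As deposited, no gene passed an adjusted p of 0.05 in limma for treated mutants over wild type, and the smallest adjusted p was 0.363. Before adjustment, 1354 of 19087 genes (7.09%) had a p under 0.05, of which 711 (3.73%) stood above wild type and 643 (3.37%) below, where 954 genes is 5% of those tested. Turned, 10 genes passed, 0.0524% of those tested, 9 of them higher (0.0472%) and 1 lower (0.00524%) in treated mutants. The smallest adjusted p was then 0.0308. Before adjustment, 1746 genes (9.15%) had a p under 0.05 in that reading, with 1027 (5.38%) above and 719 (3.77%) below. More genes thus had a small p when turned, and of all means 46.8% were then above 0 and 53.2% below. Without treated replicate 2, 3 genes passed as deposited, Erdr1 at -3.01 and Cyp3a11 at -1.60 (adjusted p = 0.0162 in limma for each) and Nat8, an acetyltransferase named after its value was seen, at 1.60 (adjusted p = 0.0458). With any other single treated array left out, 0 genes passed as deposited.

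The 4 treated arrays shared little of their pattern over all genes. Replicates 1 and 2, of one dye orientation, had a Pearson correlation of 0.19 over 19087 genes, and replicates 3 and 4, of the other, had -0.01. The means of these pairs had a correlation of -0.08 with each other as deposited. Genes are not independent replicates, and these values describe the arrays only. As deposited, 1241 genes (6.50%) were above 0 on 4 of 4 treated arrays and 1282 (6.72%) below. Turned, 1622 (8.50%) were above 0 on all 4 and 1604 (8.40%) below. The median of the 4 arrays lay between -0.01 and 0.00, and their standard deviation over features between 0.353 and 0.452. The values of replicates 1 and 2 were written with a median of 15 significant digits and those of replicates 3 and 4 with 6.

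**Figure D1:**
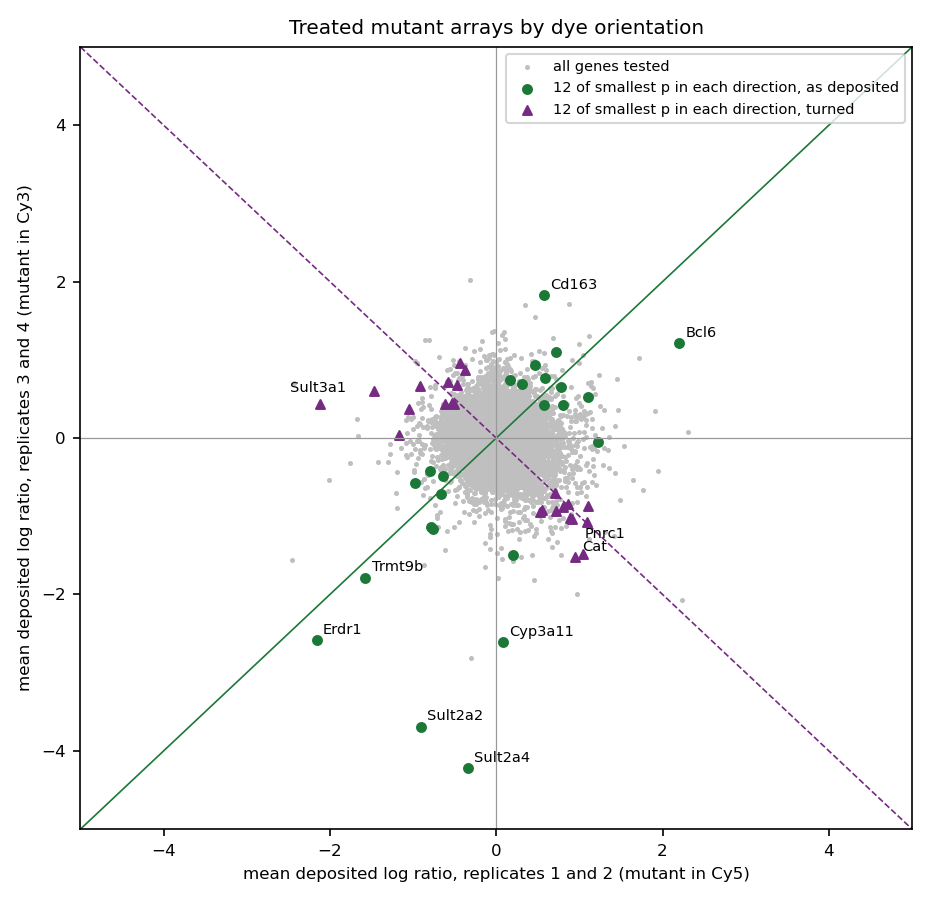
Each point is 1 of 19087 genes, with the mean deposited log ratio of treated replicates 1 and 2 (mutant in Cy5) on the horizontal axis and that of replicates 3 and 4 (mutant in Cy3) on the vertical axis. Green circles are the 12 genes of smallest p in each direction as deposited. They mostly follow the solid diagonal or its quadrants, though Cyp3a11 and Edem3 lie outside these quadrants, just above 0 on the horizontal axis and below 0 on the vertical. Purple triangles are those of the turned reading and follow the dashed diagonal. Cat, for example, lies on the turned side, and Bcl6 and Trmt9b on the deposited side.

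Genes of growth hormone signalling described here include Bcl6, among the 12 of smallest p above 0 as deposited, and members named from their gene list, such as Cish. Bcl6, a transcriptional repressor that growth hormone is known to lower in liver and that can occupy the DNA sites of STAT5, gave 2.85, 1.56, 1.13 and 1.30 on replicates 1 to 4. All 4 arrays were above 0, replicate 1 the most, and the mean was 1.71 ± 0.26, a ratio of 3.27 to wild type (adjusted p = 0.363). Cish, a direct STAT5 target that feeds back on cytokine receptors, gave -1.44, -1.18, -0.21 and -0.40, and its mean was -0.81 ± 0.21. Socs2, another STAT5 target and feedback inhibitor of the growth hormone receptor, gave -2.21, -0.63, -0.50 and -0.12. Both feedback genes were below 0 on all 4 arrays, and both were lower on the arrays with the mutant in Cy5. The 2 features of Socs2 averaged -1.50 and -0.24, so its mean of -0.87 ± 0.23 rests mostly on one of them. Onecut1, the liver transcription factor HNF6 that growth hormone is known to induce in rat liver, gave -1.18, -0.78, -0.62 and -0.55, with a mean of -0.78 ± 0.13. Igf1, the hormone that the liver releases under growth hormone, stood at 0.25 ± 0.11 over 11 features, and Igfals, which keeps it in the blood, at 0.18 ± 0.11. Of 20 measured genes of growth hormone signalling, 1 stood above wild type and 3 below at an unadjusted p under 0.05, beside 3.73% of all genes above and 3.37% below, and the median of the list was 0.02 against 0.00 for all genes.

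Turned, the same genes read differently. Bcl6 stood at 0.49 ± 0.30, Cish at -0.50 ± 0.20, Socs2 at -0.56 ± 0.27 and Onecut1 at -0.20 ± 0.13. Igf1 gave -0.31 and -0.44 on replicates 1 and 2 and 0.71 and 1.04 on replicates 3 and 4 as deposited, and its turned mean was -0.63 ± 0.12 (adjusted p = 0.127). Igfals had a turned mean of -0.37 ± 0.11. The list then had 0 genes above and 4 below at an unadjusted p under 0.05, beside 5.38% and 3.77% of all genes. These shares of all genes are the background of the list counts that follow. The mean of Bcl6 was above 0 and those of Cish, Socs2 and Onecut1 below 0 in both readings, while Igf1 and Igfals changed sign. Replicates 1 and 2 enter both readings unchanged. In Bcl6, Cish, Socs2 and Onecut1 they were on average farther from 0 than replicates 3 and 4. The equal signs follow from this and add no support. None of these genes passed in either reading.

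Promoters of Cish and Bcl6 are shown because the proteins STAT5 and Bcl6 are known to bind the same short palindrome, TTCNNNGAA. The sequences are RefSeq's for the mouse build GRCm38.p6, from 250 bases before to 50 after the annotated start, and capitals mark matches to that motif, which reads the same on both strands. The table holds 15306 of the 19087 genes tested and 184 of the 228 named by the rule used here. Cish lies at chr9:107296409-107296708 on the plus strand and holds 2 matches. The second annotated start of Bcl6 lies at chr16:23981234-23981533 on the minus strand and holds 3, and its first start, at chr16:23988803-23989102, holds 1.
Cish: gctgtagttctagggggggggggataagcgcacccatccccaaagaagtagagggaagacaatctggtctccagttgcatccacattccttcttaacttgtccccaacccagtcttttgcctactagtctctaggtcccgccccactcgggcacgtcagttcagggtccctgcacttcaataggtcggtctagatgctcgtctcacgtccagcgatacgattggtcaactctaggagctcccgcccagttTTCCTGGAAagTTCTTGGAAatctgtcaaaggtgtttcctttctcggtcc
Bcl6, second start: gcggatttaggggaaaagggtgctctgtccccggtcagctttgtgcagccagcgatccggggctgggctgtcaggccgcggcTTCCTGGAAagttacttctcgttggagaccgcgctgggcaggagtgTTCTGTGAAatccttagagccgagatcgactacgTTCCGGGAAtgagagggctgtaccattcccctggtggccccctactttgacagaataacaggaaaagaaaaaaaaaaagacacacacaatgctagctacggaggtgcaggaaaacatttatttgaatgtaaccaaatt
Of 32851 promoters in the table, 8.30% hold at least 1 match, 0.457% at least 2 and 0.0335% at least 3. A match is a run of letters and not a measured binding site.

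Genes that female mouse liver expresses more than male liver lay below wild type as deposited. Of 26 measured members, 19 were below 0, where 48.9% of all genes were, and 8 stood below at an unadjusted p under 0.05 with 0 above. Without replicate 1 or replicate 3 the 8 were 5, while all genes below at that p fell from 643 to 466 and 483. Sult2a2, a sulfotransferase of steroids and bile acids, gave -1.47, -0.34, -4.19 and -3.19. Sult2a4, its close relative, gave -1.07, 0.39, -4.60 and -3.85. Both were far lower on the arrays with the mutant in Cy3, and replicate 2 was near or above 0. Their means were -2.30 ± 0.34 and -2.28 ± 0.37, ratios of 4.91-fold and 4.86-fold below wild type. Turned, they stood at 1.39 ± 0.73 and 1.94 ± 0.74, on the other side of 0. Sult2a8, a relative that is not on the list, stood at 0.29 ± 0.15.

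Several Cyp3a genes, cytochrome P450 enzymes that oxidise many drugs and steroids, were also lower on the arrays with the mutant in Cy3. Cyp3a11, the main member in adult mouse liver, gave -0.64, 0.81, -2.73 and -2.49, and Cyp3a16 gave -0.32, 0.45, -1.52 and -1.56. Cyp3a41a, a female-biased member, gave -0.97, 0.37, -3.61 and -2.02. In each of these genes replicate 2 was above 0 and the other arrays below. The means were -1.26 ± 0.20 for Cyp3a11, -0.74 ± 0.14 for Cyp3a16 and -1.56 ± 0.33 for Cyp3a41a. Cyp3a44 gave -2.48, 0.75, -1.97 and -1.27, lowest on replicate 1, and Cyp3a13 gave -0.61, 0.02, -0.40 and -0.08, so neither split by dye at the level of the gene. For Cyp3a44 this rests on 1 of its 2 features, at -3.77 on replicate 1. The other gave -1.19, 1.06, -2.34 and -1.65, lowest on the arrays with the mutant in Cy3. Cyp3a44 stood at -1.25 ± 0.41, Cyp3a25 at -0.61 ± 0.20 and Cyp3a13 at -0.27 ± 0.22. Cyp2a4, a female-biased steroid hydroxylase, gave -0.06, 0.64, -1.38 and -1.65, with means of -0.61 ± 0.22 as deposited and 0.90 ± 0.23 when turned. Turned, Cyp3a11 stood at 1.34 ± 0.35, Cyp3a41a at 1.26 ± 0.46, Cyp3a16 at 0.81 ± 0.19, Cyp3a25 at 0.62 ± 0.20, Cyp3a44 at 0.38 ± 0.48 and Cyp3a13 at -0.03 ± 0.22. The sign of these Cyp3a means thus turned with the reading, apart from Cyp3a13. Of 31 measured genes of the Cyp3a family and targets of the receptors PXR and CAR, 2 stood above wild type and 8 below at an unadjusted p under 0.05 as deposited. The 8 were 4 without replicate 1 and 5 without replicate 3 or 4. All genes below at that p were 466, 483 and 654 without replicates 1, 3 and 4, against 643 with all arrays. Cyp2b13, Cyp2b9, Cyp3a16, Cyp3a41a and Cyp3a44 are on this list and on the female-biased one, so the counts of these lists share genes. Members of the Sult2a and Cyp3a families have similar sequences, and how well the features tell them apart was not tested.

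Cyp17a1, Sult3a1 and Sult3a2 were not lowest on the arrays with the mutant in Cy3. Cyp17a1, a steroid hydroxylase, gave -1.90, -0.47, -1.06 and -0.74, and was below 0 on all 4 arrays with means of -1.04 ± 0.22 as deposited and -0.15 ± 0.24 when turned. Sult3a1 gave -2.90, -1.35, 0.07 and 0.80, and Sult3a2 gave -2.97, -1.05, -0.70 and -0.37. Both Sult3a genes were lowest on the arrays with the mutant in Cy5, and Sult3a1 was above 0 on the others. Sult3a1 stood at -0.85 ± 0.34 as deposited and at -1.28 ± 0.25 when turned, and Sult3a2 at -1.27 ± 0.44 and -0.74 ± 0.28. Sult1e1, the estrogen sulfotransferase, stood at -1.02 ± 0.34 as deposited and at 0.41 ± 0.33 when turned. Of 18 measured sulfotransferases and sulfate donors, 5 stood below wild type at an unadjusted p under 0.05 as deposited and 0 above, against 2 below and 1 above when turned. Sult2a2, Sult2a4 and Sult3a1 are also on the female-biased list, so these counts share genes with it.

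Male-biased liver genes leaned the other way as deposited. Of 25 measured members 18 were above 0, where 51.1% of all genes were, and 8 stood above at an unadjusted p under 0.05 with 1 below, Moxd1 at -0.34. The 8 were 2 without replicate 1, where the list median was 0.12, and 4 without replicate 3. All genes above at that p fell from 711 to 400 without replicate 1 and to 639 without replicate 3. Susd4, a complement regulator, gave 0.86, 0.23, 0.35 and 1.45, with means of 0.72 ± 0.17 as deposited and -0.18 ± 0.31 when turned. Arsa, a lysosomal sulfatase, stood at 0.46 ± 0.13, Gstp1, a glutathione transferase, at 0.54 ± 0.19, and Slco1a1, an uptake carrier of organic anions, at 0.30 ± 0.10. C6, a component of complement, stood at 0.90, Elovl3, a fatty acid elongase, at 0.52 and Cyp4a12a, a hydroxylase of fatty acids, at 0.36. The medians of the list were 0.26, 0.06, 0.23 and 0.05 on replicates 1 to 4, and those of the female-biased list -0.25, 0.08, -0.14 and -0.43. The male-biased median was thus above 0 on every array, while the female-biased median was above 0 on replicate 2. Turned, the male-biased list had 2 genes above and 1 below, with a median of 0.01. The female-biased list then had 5 above and 3 below, with a median of 0.19 against -0.01 for all genes.

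Whether the mice on an array differed in sex was looked at through genes chosen after their values were seen. The Y-linked Eif2s3y gave 0.08, -0.30, 0.22 and 0.08, Uty gave -0.16, -0.22, 0.11 and -0.07, and Kdm5d gave -0.05, -0.06, -0.55 and -0.05. The farthest from 0 were Kdm5d on replicate 3 and Eif2s3y on replicate 2. Xist, which is transcribed from the inactive X chromosome of females, gave 0.78, 0.38, -1.0 and -0.52, values that change sign with the dye orientation. A part of sex in the values of the sex-biased genes was not tested.

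**Figure D2:**
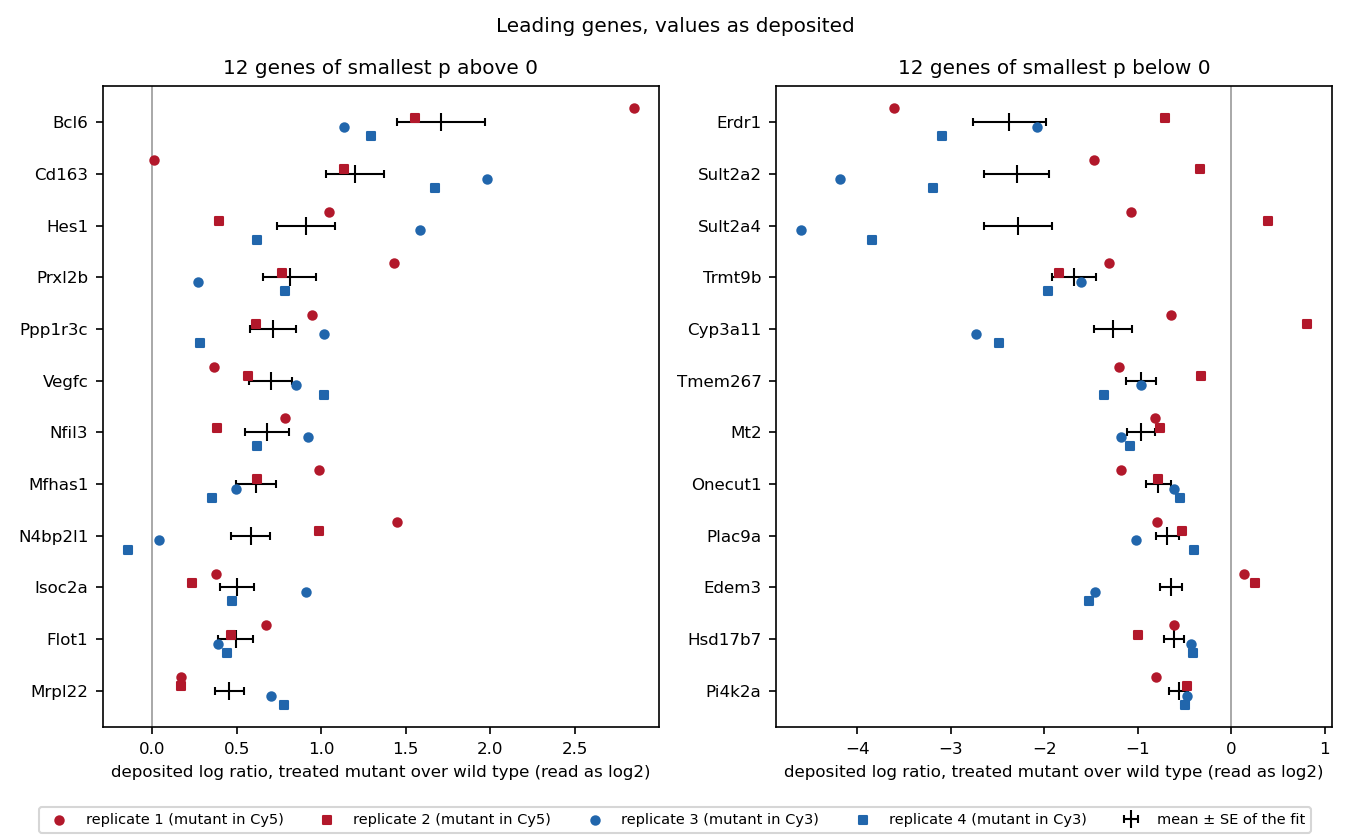
The 12 genes of smallest p above 0 (left) and below 0 (right) for treated mutants over wild type as deposited, with the log ratio on the horizontal axis, red marks for replicates 1 and 2 (mutant in Cy5), blue marks for replicates 3 and 4 (mutant in Cy3) and the mean ± SE of the fit in black. Bcl6, Trmt9b and Mt2 keep 1 sign on all 4 arrays, while Sult2a4, Cyp3a11 and Edem3 split by dye.

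Metallothioneins, small proteins that hold zinc and copper and that rise with metals, glucocorticoids and oxidative stress, were among the most even values of the treated arrays. Mt2 gave -0.82, -0.76, -1.18 and -1.09, and Mt1 gave -0.73, -0.62, -0.94 and -0.96. Both genes were below 0 on all 4 arrays within a narrow range. The means were -0.96 ± 0.15 and -0.81 ± 0.15 as deposited, ratios of 1.95-fold and 1.76-fold below wild type with adjusted p of 0.363 and 0.375. Mt1 is the mean of 11 features that ran between -1.15 and 0.46. Because the values have one sign on both dye orientations, turning cancels them, to 0.17 ± 0.11 for Mt2 and 0.14 ± 0.14 for Mt1. Slc30a1, a zinc exporter that the metal-sensing factor MTF1 induces like the metallothioneins, gave -0.53, 0.16, -0.88 and -0.51, with means of -0.44 ± 0.18 as deposited and 0.25 ± 0.17 when turned. Mt3, known mainly from brain, stood at -0.34 ± 0.21 and Mt4, from squamous epithelium, at 0.03 ± 0.11. Of 14 measured genes of the list, 3 stood below wild type at an unadjusted p under 0.05 and 0 above, with a median of -0.06. Turned, 1 stood below and 3 above, with a median of 0.10.

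The promoters of Mt1 and Mt2 are shown because the genes lie beside each other, had nearly the same values on these arrays and are both known targets of MTF1, which binds metal response elements. Capitals mark the core of such elements, searched as TGCACNC or TGCGCNC on both strands, in RefSeq's sequence of GRCm38.p6. Mt2 lies at chr8:94172368-94172667 on the plus strand and holds 4 matches. Mt1 lies at chr8:94178839-94179138 on the plus strand and holds 3.
Mt2: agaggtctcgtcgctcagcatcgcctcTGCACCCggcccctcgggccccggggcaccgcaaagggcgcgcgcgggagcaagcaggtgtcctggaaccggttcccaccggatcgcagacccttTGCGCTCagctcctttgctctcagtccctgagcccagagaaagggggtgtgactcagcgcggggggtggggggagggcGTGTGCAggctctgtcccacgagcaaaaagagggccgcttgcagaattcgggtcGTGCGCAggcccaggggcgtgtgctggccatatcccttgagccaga
Mt1: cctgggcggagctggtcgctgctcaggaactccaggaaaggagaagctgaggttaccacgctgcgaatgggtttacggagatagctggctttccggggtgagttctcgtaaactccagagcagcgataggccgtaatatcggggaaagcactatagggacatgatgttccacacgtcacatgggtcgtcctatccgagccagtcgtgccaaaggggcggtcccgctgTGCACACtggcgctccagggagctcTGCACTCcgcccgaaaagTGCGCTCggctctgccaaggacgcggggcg
At least 1 match is found in 25.7% of the 32851 promoters, at least 3 in 1.97% and at least 4 in 0.517%.

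Cyp7a1, the rate-limiting enzyme of the classical route from cholesterol to bile acids, gave -3.52, -1.40, -1.73 and -1.38. It was below 0 on all 4 arrays, replicate 1 the most. Its mean was -2.01 ± 0.37 as deposited, 4.02-fold below wild type, with its features at -2.01 and -2.0, and -0.45 ± 0.40 when turned. Nr1h5, FXR beta, a nuclear receptor related to FXR, gave -0.32, -0.27, -0.27 and -0.62, and Nr1h4, which encodes FXR, the bile acid receptor, stood at 0.26 ± 0.11. Akr1d1, a steroid reductase of the same route, gave 0.61 and 0.15 on replicates 1 and 2 and -1.16 and -1.20 on replicates 3 and 4. Its mean of -0.40 ± 0.14 as deposited became 0.78 ± 0.14 when turned. Klb, the co-receptor of FGF15, stood at -0.35, and Cyp7b1, of the alternative route, at 0.40. Of 30 measured genes of bile acid synthesis and transport, 2 stood above and 4 below at an unadjusted p under 0.05 as deposited, and 2 above and 0 below when turned.

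Genes of cholesterol synthesis and uptake lay mostly below wild type as deposited, with 18 of 22 measured members under 0. Hsd17b7, a ketosteroid reductase of the route, gave -0.61, -1.0, -0.43 and -0.41, with a mean of -0.61 ± 0.11. Sqle, the squalene epoxidase, gave -1.36, -1.19, -0.57 and 0.41, with a mean of -0.68 ± 0.26. Cyp51, the lanosterol demethylase, gave -0.18, -0.32, -0.53 and -0.38, with a mean of -0.35 ± 0.14. Hsd17b7 and Cyp51 were thus below 0 on all 4 arrays and Sqle on 3. Those 3 genes stood below wild type at an unadjusted p under 0.05, none stood above, and the list had medians of -0.02, -0.35, -0.31 and -0.13 on replicates 1 to 4. Turned, the list median was -0.04 and 1 gene stood above, Tm7sf2, a sterol reductase, at 0.28.

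In fat and sugar metabolism the values ran both ways as deposited. Ppara, the receptor that drives fatty acid oxidation in fasting, gave 1.47, -0.07, 1.03 and 0.56 over 10 features, with a mean of 0.75 ± 0.26. Fgf21, a fasting hormone it induces, gave 1.95, -0.45, 1.65 and 0.58, and Pdk4, a kinase that shuts off pyruvate dehydrogenase, gave -0.38, 0.71, 1.01 and 0.50. Replicate 2 was the lowest array for Ppara and Fgf21, and replicate 1 for Pdk4. Of 33 measured PPAR alpha targets and oxidation genes 3 stood above wild type at an unadjusted p under 0.05 and 1 below, Cyp4a14, a fatty acid hydroxylase, at -0.30 ± 0.13. Turned, 7 stood above and 0 below, Ppara stood at -0.05 ± 0.25, and Cyp4a14 was on the other side of 0 at 0.32 ± 0.12. Thrsp, a lipogenic nuclear protein, stood at -0.53 ± 0.15 and Lpin1, a phosphatidate phosphatase, at 0.69 ± 0.22, and they were the 2 of 29 genes of fatty acid and triglyceride synthesis (6.90%) at an unadjusted p under 0.05, a share close to the 7.09% of all genes. Turned, 3 stood above and 2 below, and Lpin1 stood at -0.63 ± 0.23. Ppp1r3c, a subunit that directs protein phosphatase 1 to glycogen, gave 0.95, 0.62, 1.02 and 0.28, and Ppp1r3b, a sister subunit, gave -0.28, -0.74, -1.01 and -1.26. The gene values of these sisters lay on opposite sides of 0 on every array, with means of 0.72 ± 0.14 and -0.82 ± 0.23 as deposited. The features of Ppp1r3c averaged 0.29 and 1.14, and the lower one stood at -0.21 on replicate 4, on the side of Ppp1r3b. Ppp1r3b lies within 100 measured genes of Wrn. Ppargc1a, a coactivator of gluconeogenesis and mitochondrial genes, gave -0.38, -0.16, -0.64 and -0.51, and Pygl, the liver glycogen phosphorylase, stood at -0.30. With Pdk4, which is in both lists, 2 of 25 glucose and glycogen genes stood above and 3 below. Turned, 6 of them stood above and 0 below, while Ppp1r3c stood at 0.07 ± 0.19 and Ppp1r3b at 0.31 ± 0.24.

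Clock genes away from 0 lay on both sides. Nfil3, a repressor of the clock's D-box genes, gave 0.79, 0.39, 0.92 and 0.62, with a mean of 0.68 ± 0.13. Nr1d1 and Nr1d2, the REV-ERB receptors, which are known to repress Nfil3 and Npas2, averaged -0.98 ± 0.37 and -0.74 ± 0.23. Nr1d1 was below 0 on all 4 arrays, and replicate 4 was the lowest for both receptors, at -1.90 for each. Npas2, a partner of the clock activator BMAL1, stood at 0.21 ± 0.09. Of 19 clock genes these were the 4 at an unadjusted p under 0.05 as deposited. No source used here gives the time of day at which livers were taken, and a difference in that time was not tested. Turned, 2 clock genes stood above and 1 below, Nfil3 stood at -0.09 ± 0.17 and Nr1d1 at 0.17 ± 0.42.

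Genes that make, move and recycle vitamin C included 1 of 14 above wild type and 2 below at an unadjusted p under 0.05 as deposited, and 2 above and 3 below when turned. Gulo gave -0.19, -0.03, -0.64 and -0.51, below 0 on all 4 arrays, with a mean of -0.34 ± 0.10 as deposited and 0.23 ± 0.11 when turned. Slc23a1, the sodium-coupled ascorbate transporter of liver, stood at -0.21 ± 0.11 and 0.06 ± 0.11. Slc2a1, a glucose transporter that also carries dehydroascorbate, gave -0.89, -0.85, -0.32 and 0.07, with means of -0.50 ± 0.16 as deposited and -0.37 ± 0.16 when turned. Akr1a1, the reductase that makes gulonate for the route to ascorbate, stood at 0.34 ± 0.13. Ugp2, which makes UDP-glucose for both glycogen and ascorbate, gave 1.07 and 1.12 on replicates 1 and 2 and -0.66 and -1.47 on replicates 3 and 4. It stood at 0.01 ± 0.15 as deposited and at 1.08 ± 0.15 when turned (adjusted p = 0.0576). Of 31 measured dioxygenases and related enzymes that use ascorbate as a cofactor, 0 reached an unadjusted p of 0.05 as deposited. Turned, Hpd and Hgd, enzymes of tyrosine breakdown, stood at 0.42 ± 0.16 and 0.41, and Alkbh2, a DNA repair demethylase, at -0.27 ± 0.10.

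Of 28 antioxidant genes 4 (14.3%) had an unadjusted p under 0.05 as deposited, and of 36 genes of Wrn, DNA repair and p53 4 did (11.1%), beside 7.09% of all genes. Gsr, the glutathione reductase, gave -0.19, -0.04, -0.38 and -0.61, and it lies within 100 measured genes of Wrn. Its features averaged -0.68, 0.04 and -0.27. Txnrd2, the mitochondrial thioredoxin reductase, gave 0.28, 0.47, 0.59 and 0.11. Prdx2, a peroxiredoxin, stood at 0.24 ± 0.10 and Gpx4, the peroxidase of lipid hydroperoxides, at 0.23 ± 0.10. Wrn itself gave 0.24, 0.15, 0.29 and -0.04, with a mean of 0.16 ± 0.10 over 4 features as deposited and 0.03 ± 0.10 when turned. The position of the features relative to the mutation is unknown here, so Wrn checks no label. In the list with Wrn Terf1, which binds telomeres, stood at 0.67 ± 0.22, the cell cycle inhibitor Cdkn1a at 0.63 ± 0.20, the stress gene Gadd45g at 0.86 ± 0.32 and Brca1 at -0.28 ± 0.12. Terf1 was above 0 on all 4 arrays, whereas Gadd45g gave -0.40, -0.23, 1.29 and 2.76 and stood at -1.17 ± 0.35 when turned.

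Markers of other cell types in liver moved with single arrays. The 19 measured markers of Kupffer cells, the resident macrophages, had medians of 1.19, 0.88, -1.45 and 1.69 on replicates 1 to 4. Marco, a scavenger receptor, gave 1.44, 1.29, -4.75 and 4.79, and Lyz2, lysozyme, gave 2.39, 1.51, -2.65 and 1.81. Replicate 3 was thus the one array on which most macrophage genes lay below wild type. The list stood at a median of 0.63 as deposited, with 16 of 19 above 0, and at 0.40 when turned. As deposited, 3 of its genes stood above wild type at an unadjusted p under 0.05, and 13 did in a fit without replicate 3, where the median was 1.16. All genes above at that p were 711 with all arrays and 639 in that fit. In a fit without replicate 4 the median as deposited was -0.12, with 2 genes above and 3 below, beside 678 and 654 of all genes. Such fits adjust the unequal dyes of the remaining arrays through the dye coefficient, and plain means of those arrays had medians of 1.22 without replicate 3 and 0.20 without replicate 4, so the sign without replicate 4 depends on that adjustment. The untreated array with the wild type number of replicate 3 had a list median of -1.25. With both arrays of number 4 left out, Marco passed in both readings, at -1.72 as deposited and at 3.13 when turned. In liver tissue, fewer cells of a type and less RNA per cell cannot be told apart. Cd163, a haemoglobin receptor of macrophages, did not follow the list. It gave 0.01, 1.14, 1.98 and 1.67, and its mean of 1.20 ± 0.17 (adjusted p = 0.363) became -0.63 ± 0.26 when turned. Clec4f, a Kupffer cell lectin, gave 1.19, 1.10, -0.03 and 1.36, with a mean of 0.90 ± 0.20, and Vsig4, a complement receptor, stood at 1.13 ± 0.41.

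Genes of the interferon and immunoproteasome list with the smallest p stood above wild type as deposited. H2-K1, an MHC class I heavy chain, gave 0.93, 0.39, 0.09 and 0.55 over 14 features, with a mean of 0.49 ± 0.12. Psme1, a proteasome activator, gave 0.75, 0.54, -0.09 and 0.60, and Psmb10, an immunoproteasome subunit, gave 0.51, 0.60, 0.04 and 1.23. Replicate 3 was the lowest array for each of these genes, as for the macrophage markers, and its part in the result was not tested. Of 37 interferon and immunoproteasome genes, 6 stood above wild type and 1 below, Oasl1 at -0.31, and 28 of 37 were above 0. B2m, the light chain of MHC class I, stood at 0.22 ± 0.13, and Tap1, a peptide transporter, at -0.01 ± 0.23. In a fit without replicate 4 the list median was -0.04, 16 of 37 were above 0, and 3 stood above and 2 below at an unadjusted p under 0.05. Plain means without that array had a median of 0.04. Of all genes, 678 stood above and 654 below at that p in the fit without replicate 4. The medians were 0.45, 0.13, -0.16 and 0.46 on replicates 1 to 4. Turned, 2 stood above and 1 below. Acute phase genes had a median of -0.81 on replicate 3 against 0.19, 0.10 and 0.16 on replicates 1, 2 and 4, and Il1b, an inflammatory cytokine, gave -3.17 on replicate 3 and -0.04, 0.45 and 0.02 on the others. On the untreated array with the wild type number of replicate 3, Il1b features ran between -3.16 and -1.91, and the acute phase median was -0.60. Of the 28 measured, Hamp, the iron hormone hepcidin, was the one at an unadjusted p under 0.05 as deposited, at -0.60 ± 0.19.

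The medians of other marker lists were nearer 0 as deposited. They were 0.09 for 20 lymphocyte and neutrophil markers, 0.04 for 23 sinusoidal endothelial markers, -0.02 for 25 stellate cell and matrix markers and 0.03 for 8 cholangiocyte markers. They were 0.01 for 7 erythroid markers and 0.01 for 14 markers of pancreas, adipose tissue and muscle, and -0.11 for 20 hepatocyte identity genes. The lymphocyte and neutrophil medians were 0.19, 0.11, -0.41 and 0.58 on replicates 1 to 4, lowest on replicate 3 and highest on replicate 4 as for the macrophage markers. Turned, 8 of 8 cholangiocyte markers were above 0 with a median of 0.28, and the hepatocyte median was 0.12. At an unadjusted p under 0.05 these lists held Cd3d, a T cell receptor subunit, at 0.37 ± 0.12, Plin1, an adipocyte lipid droplet protein, at 0.32 ± 0.13, and the hepatocyte factors Onecut1, given above, and Foxa2 at -0.32 ± 0.12. Amy2a5, the pancreatic amylase, stood at -0.14 ± 0.11 as deposited and at 0.68 ± 0.11 when turned.

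**Figure D3:**
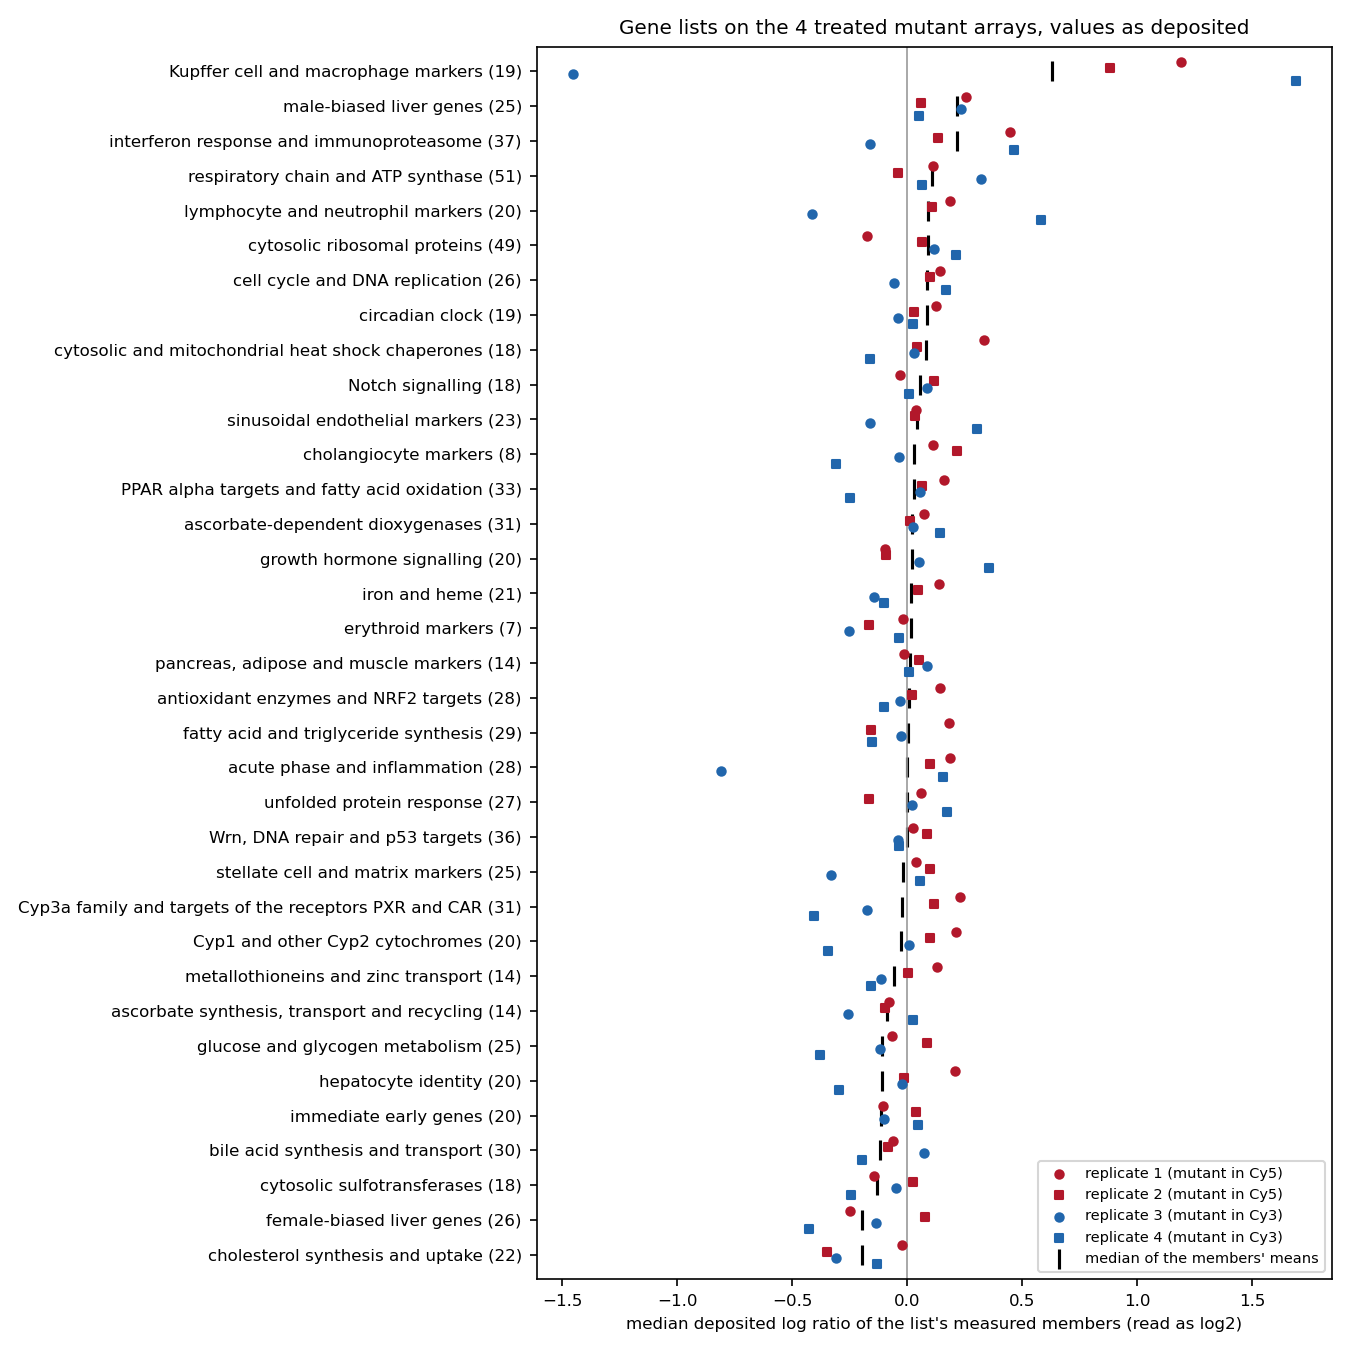
The median deposited log ratio of the measured members of 35 gene lists (one line each, number of members in brackets) on each treated array, with red marks for replicates 1 and 2 (mutant in Cy5), blue marks for replicates 3 and 4 (mutant in Cy3) and a black bar for the median of the members' means. Kupffer cell markers span the widest range, from -1.45 on replicate 3 to 1.69 on replicate 4, while the male-biased list is above 0 on all 4 arrays and the cholesterol list below 0 on all 4.

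Among the remaining genes of smallest p as deposited, Trmt9b, which is related to tRNA methyltransferases and lies within 100 measured genes of Wrn, gave -1.31, -1.84, -1.60 and -1.96. It had the most even large value of these arrays, with a mean of -1.68 ± 0.23, 3.20-fold below wild type. Its features stood at 0.10 and 0.11 when turned. Erdr1 gave -3.61, -0.71, -2.08 and -3.09, but its features averaged -3.65 and -1.10. It stood at 0.21 ± 0.45 when turned. Hes1, the Notch target and transcriptional repressor, gave 1.04, 0.40, 1.58 and 0.62, with means of 0.91 ± 0.17 as deposited and -0.19 ± 0.17 when turned. In the same list of 18 Notch genes, Notch2 stood at 0.23 ± 0.09 and Notch3 at -0.43 ± 0.14. The features of Notch2 ran both ways, at 0.30, -0.25 and 0.63. Dusp1, a phosphatase of stress kinases that glucocorticoids induce, gave 1.73, 0.49, 0.68 and 1.92, with means of 1.21 ± 0.33 as deposited and -0.09 ± 0.38 when turned. Other immediate early genes ran both ways, Nr4a1 at -0.82 ± 0.31, Klf4 at -0.65 ± 0.26 and Ier2 at 0.34 ± 0.12, with features of Ier2 at 0.03 and 0.65.

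Vegfc, a lymphatic growth factor, stood at 0.70 ± 0.13 and Mfhas1 at 0.61 ± 0.12, and both lie within 100 measured genes of Wrn. Prxl2b stood at 0.81 ± 0.16, N4bp2l1 at 0.58 ± 0.12, Isoc2a at 0.50 ± 0.10, Flot1, a scaffold protein of membrane rafts, at 0.49 ± 0.10 and Mrpl22, a mitochondrial ribosomal protein, at 0.46 ± 0.09. Below wild type, Tmem267 stood at -0.97 ± 0.16, Plac9a at -0.68 ± 0.12, Edem3, of the disposal of misfolded glycoproteins, at -0.65 ± 0.12 and Pi4k2a, a phosphatidylinositol kinase, at -0.56 ± 0.10. Turned, Edem3 stood at 0.84 ± 0.18, on the other side of 0, and Tmem267, Plac9a and Pi4k2a stood at 0.20, 0.03 and -0.08. Of the 12 genes of smallest p above 0, 11 had the sign of their mean on all 4 arrays, and of the 12 below 0, 9 did. The choice by smallest p favours such genes.

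Medians of the respiratory chain and of ribosomal proteins were on opposite sides of 0 in the readings. Of 51 subunits of the respiratory chain and ATP synthase, 37 were above 0 as deposited with a median of 0.11, and 3 stood above at an unadjusted p under 0.05, Ndufs6 at 0.32 ± 0.11, Ndufb2 at 0.29 ± 0.10 and Ndufs4 at 0.26 ± 0.10. Of 49 cytosolic ribosomal proteins, 3 stood above at that p, with Rps10 the farthest from 0 at 0.53 ± 0.13, and the median was 0.09. Turned, the medians were -0.09 and -0.13, and 6 ribosomal proteins stood below wild type, with Rpl3 at -0.44 ± 0.11. Of 27 genes of the unfolded protein response, Herpud1 stood at 0.62 ± 0.26, Ddit3, a stress transcription factor, at 0.48 ± 0.17, Chac1 at 0.36 ± 0.11 and Xbp1 at 0.30 ± 0.12, while the median of the list was 0.00 and became -0.13 when turned. Of 18 heat shock chaperones, Hspb1 stood at 0.62 ± 0.26 and Hspe1 at 0.38 ± 0.15, and the median was 0.08 as deposited and 0.10 when turned, where 4 stood above and 0 below. Ccna2 and Ccnb2, cyclins of mitosis, stood at 0.24 ± 0.10 and 0.22 ± 0.09 among 26 cell cycle genes. In iron and heme metabolism, Ppox stood at 0.39 ± 0.12, Urod at 0.31 ± 0.12 and Alas1, the first enzyme of heme synthesis, at -0.50 ± 0.19. Among 20 Cyp1 and other Cyp2 genes, Cyp2c23 stood at 0.47 ± 0.15 and Cyp2a5 at -0.51 ± 0.17, which with Cyp2a4 made 1 above and 2 below. Turned, 6 stood above and 1 below, and Cyp2a5 stood at 0.61 ± 0.20.

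With the swapped arrays turned, 10 genes passed the test in limma, and they include Cat, Ces1d, Dld, Enpep and Alpl, 5 genes of enzymes. Cat, the peroxisomal catalase that breaks down hydrogen peroxide, had deposited values of 0.99 and 0.91 on replicates 1 and 2 and -1.32 and -1.72 on replicates 3 and 4. Ces1d, a carboxylesterase, had 1.21 and 1.00, then -0.66 and -1.09. Dld, the dihydrolipoamide dehydrogenase shared by the mitochondrial 2-oxo acid complexes, had 0.45 and 0.61, then -0.85 and -1.05. Each of them thus had one sign on the first dye orientation and the other sign on the second, which turning makes a single sign. The turned means were 1.24 ± 0.15 for Cat, a ratio of 2.36 (adjusted p = 0.0453), 0.99 ± 0.11 for Ces1d (adjusted p = 0.0308) and 0.74 ± 0.10 for Dld (adjusted p = 0.0453). As deposited the same genes stood at -0.28 ± 0.14, 0.12 ± 0.12 and -0.21 ± 0.09.

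The other genes that rose in the turned reading were 9130016M20Rik at 1.26 ± 0.13, Pnrc1, a nuclear receptor coactivator, at 0.98 ± 0.10 and Gm2022 at 0.85 ± 0.09, each with an adjusted p of 0.0308. Septin7, a cytoskeletal GTPase, rose by 0.96 ± 0.12, Enpep, a membrane aminopeptidase that cleaves angiotensin, by 0.85 ± 0.11 and Sfr1 by 0.74 ± 0.09, each with an adjusted p of 0.0453. Alpl, the tissue-nonspecific alkaline phosphatase, was the one gene that fell, to -0.71 ± 0.09 (adjusted p = 0.0453). It had deposited values of -1.02 and -1.07 on replicates 1 and 2 and 0.41 and 0.34 on replicates 3 and 4. Its mean was also below 0 as deposited, at -0.34 ± 0.10.

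**Figure D4:**
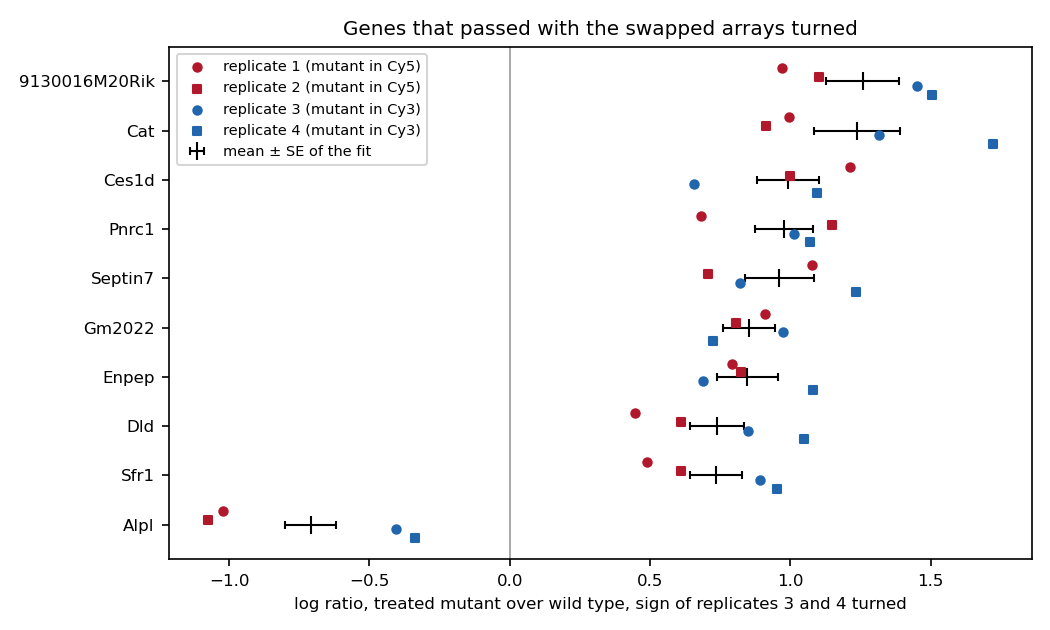
The 10 genes that passed an adjusted p of 0.05 with the swapped arrays turned, with the log ratio of treated mutant over wild type after turning on the horizontal axis, red marks for replicates 1 and 2, blue marks for replicates 3 and 4 and the mean ± SE of the fit in black. All 4 arrays of each gene lie on one side of 0, and Alpl alone lies below.

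These 10 calls rested on few features and on the whole set of arrays. Of the 10 genes 9 had a single feature, and Dld had 3 that ran between 0.34 and 1.08 when turned. With 1 treated array left out, 0 genes passed, whichever array it was. In the fit, a change in the turned reading takes the place of a dye effect as deposited, and the dye coefficient as deposited passed for 371 genes, 309 of them above 0. For Cat that coefficient was 1.22 ± 0.10. A dye effect and a difference between genotypes with the swapped arrays turned cannot be told apart in the means of both groups.

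Just outside the threshold when turned lay further genes of liver metabolism. Ehhadh, a peroxisomal enzyme of fatty acid oxidation, stood at 0.87 ± 0.13, Acadl, a mitochondrial acyl-CoA dehydrogenase, at 0.62 ± 0.10, and Trf, transferrin, at 0.82 ± 0.13, each with an adjusted p of 0.0803. Gclm, a subunit of the enzyme that makes glutathione precursors, stood at 0.68 ± 0.11 with the same adjusted p. Of 28 antioxidant genes 7 stood above wild type and 1 below at an unadjusted p under 0.05, including Nfe2l2, which encodes NRF2, at 0.51, and Gpx3, the plasma glutathione peroxidase, at -0.65. Of the 31 Cyp3a, PXR and CAR genes 10 stood above and 1 below, Alas1 at -0.46 ± 0.14, and the list median was 0.35. The 10 were 6 without replicate 3 and 5 without replicate 4, and the 7 antioxidant genes were 4 without replicate 1 or 4. Cyp2e1, the alcohol-induced cytochrome, stood at 0.89 ± 0.22 and Cyp2c29 at 0.92 ± 0.17. Acute phase genes had 7 above and 0 below, among them Orm2 at 0.80 and Crp at 0.41 ± 0.11, with a median of 0.32. In a fit without replicate 3 the acute phase count was 1 above and the median -0.0029, where plain means had a median of 0.12, and without replicate 1 the count was 2. These counts stand beside 5.38% of all genes above and 3.77% below. In the fits without replicates 1, 3 and 4, all genes above at that p were 759, 772 and 1098, against 1027 with all arrays.

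Genes of smallest p below 0 when turned, of which Alpl alone passed, had varied roles. Nipal1, of a magnesium transporter family, gave -1.92, -1.01, 0.30 and 0.90 as deposited and stood at -1.03 ± 0.17 when turned. Cidec, a lipid droplet protein named from the list of fatty acid synthesis, gave -1.02, -0.59, 1.22 and 1.29 as deposited and stood at -1.03 ± 0.27. Both genes were below 0 with the mutant in Cy5 and above 0 with it in Cy3. Turned, Prph2 stood at -0.79 ± 0.13, Gprc5b at -0.70 ± 0.13, Arid3a at -0.65 ± 0.13 and Nab2, a corepressor of EGR factors, at -0.61 ± 0.13. Nab2 was also below 0 as deposited, at -0.57 ± 0.13.

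Against the untreated mutants, no gene differed at an adjusted p of 0.05 in limma in either reading. As deposited 817 genes (4.28%) had an unadjusted p under 0.05 for treated minus untreated, 452 above (2.37%) and 365 below (1.91%), and turned 572 (3.00%) did, 278 above (1.46%) and 294 below (1.54%). Of all differences 53.7% were above 0 and 46.3% below as deposited, and 47.7% and 52.3% when turned. The smallest adjusted p was 0.974 as deposited and 1.00 when turned. Both groups were set against the same numbered wild type mice, so their values over wild type share those animals. With the number as a replicate block, 0 genes passed, and 1236 genes as deposited and 821 when turned had an unadjusted p under 0.05.

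Several leading genes had the same sign of the mean in both groups. Mt2 stood at -0.96 ± 0.15 in treated and -0.87 ± 0.15 in untreated mutants, a difference of -0.09 ± 0.21. Hes1 stood at 0.91 ± 0.17 in treated and 0.79 ± 0.17 in untreated mutants, and Cish at -0.81 ± 0.21 in treated and -0.90 ± 0.21 in untreated mutants. Bcl6 gave 2.85, 1.56, 1.13 and 1.30 in treated against 2.20, 0.57, 0.52 and 0.90 in untreated mutants, a difference of 0.66 ± 0.37. Each treated array was the higher one of its replicate number for Bcl6. These differences were within 2 SE of 0, which does not show that the groups are alike. The SE is that of the fit that does not pair arrays by wild type number, so it leaves out the even order of the Bcl6 pairs.

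Other genes had larger differences as deposited, none past the threshold. Sult2a2 gave -1.47, -0.34, -4.19 and -3.19 in treated against 1.69, 0.53, 0.73 and -0.46 in untreated mutants, a difference of -2.92 ± 0.49. Isoc2a gave 0.38, 0.24, 0.91 and 0.47 in treated against -0.32, -0.43, -0.07 and -0.17 in untreated mutants, and Susd4 gave 0.86, 0.23, 0.35 and 1.45 against -0.65, -0.59, -0.09 and -0.23. For Isoc2a and Susd4 no treated array overlapped an untreated one, and the differences were 0.75 ± 0.14 and 1.11 ± 0.24. The share of all genes without such an overlap was not counted. Sqle gave -1.36, -1.19, -0.57 and 0.41 in treated against 0.86, -0.31, 1.71 and 0.36 in untreated mutants, a difference of -1.34 ± 0.36. Of the 22 cholesterol genes 8 had an unadjusted p under 0.05 for treated minus untreated, all below, against 1.91% of all genes below, and turned the count was 0 above and 0 below. Nr1h5 was below 0 on all 4 treated arrays and above 0 on all 4 untreated ones, with means of -0.37 ± 0.11 and 0.37 ± 0.11.

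**Figure D5:**
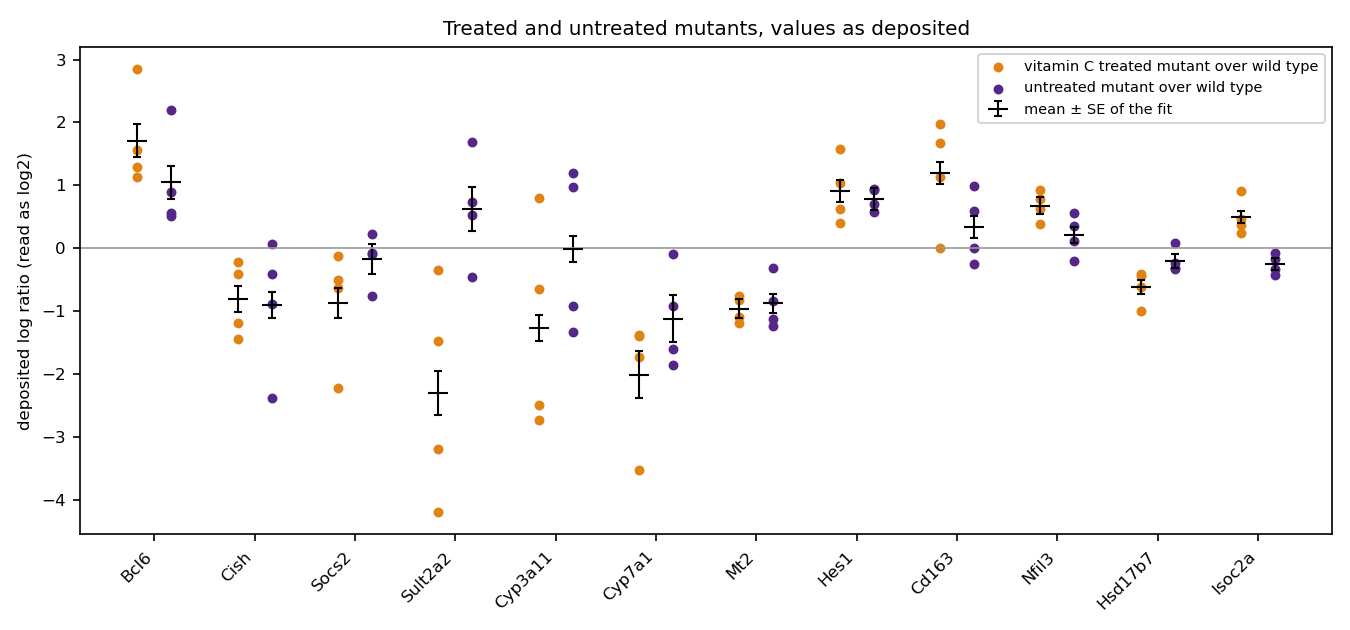
The deposited log ratio over wild type of 12 genes on the 4 treated arrays (orange, left of each pair) and the 4 untreated arrays (purple, right), with the mean ± SE of the fit in black. Isoc2a has no overlap between the groups, Sult2a2 lies below 0 on all treated arrays, and Mt2 and Hes1 lie at like values in both.

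Genes around Wrn were read once more because the mutation sits among them. Of the 100 measured genes on each side, 16 stood above and 12 below wild type at an unadjusted p under 0.05 as deposited, against 3.73% and 3.37% of all genes, and 12 and 5 did when turned, against 5.38% and 3.77%. Earlier results of these data on this region were known when it was listed, so the counts are a description.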

How the data were processed

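Log ratios of 45220 features on 8 two-colour Agilent arrays were deposited by the authors as one table, read here as log2 values because the file gives no base. The tool limma is listed, per the submitters' processing notes, without its role or version. For background, normalization, log base, direction and dye swap, the handling was not given in the sources used here. Values are complete: the deposited table has no missing value and gives no brightness, so a filter on dim or saturated spots was not possible. Array medians close to 0 are those of centred values.

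GEO's platform annotation gave 1 gene symbol to 33653 features, several to 56 and none to 11511. A RefSeq gene table of GRCm38.p6 held the Entrez numbers of 33517 of them, and 0 symbols were renamed. Averaging over the features of each gene left 19087 genes, 8343 with more than 1 feature. The files name no build, so coordinates are those of RefSeq's promoter table.

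In R 4.3.3, limma 3.58.1 (lmFit, eBayes) fitted one model per reading to the 8 arrays. It had a term for each mutant group and a dye term whose sign differs between orientations, and 5 residual degrees of freedom. A gene passed when its p, adjusted over all genes by Benjamini-Hochberg, was under 0.05. In the turned reading the sign of replicates 3 and 4 of both groups was changed before the fit. The median SE of a treated mean was 0.122 as deposited and 0.125 when turned, and precision is limited by having 4 arrays a group. Tests were checked on simulated data.

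The same replicate numbers in both groups name the same wild type mice. Deviations from the group means correlated at 0.38, 0.32, 0.51 and 0.34 for numbers 1 to 4 over genes, so the numbers were taken to pair arrays, and a block on them is an alternative. Other alternatives were no dye coefficient, the treated arrays alone, medians of features, single features, scaled arrays, robust eBayes, genes with 2 or more features, and each array or number left out.

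Named genes are the 12 of smallest p in each direction under each reading, those that passed (all of them, since they were few), 4 members per list by smallest p as deposited and 2 turned, Wrn, Gulo, Slc23a1, Bcl6 and the Sult2a, Cyp3a and metallothionein families. A few genes that make up a count were added. The members, the 35 gene lists, the markers and this rule were chosen with earlier results of these data known. Genes beside Wrn are the 100 measured ones on each side in RefSeq's order.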

Additional observations from a re-analysis of the deposited data

Results flagged for a closer look

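Single arrays stood apart within the 4 treated arrays in 11 of 244 sets of values checked, each a gene or a list median in 1 reading, when their gap to the nearest array exceeded Dixon's critical share of their range. Chance alone flags about 1 in 20 such groups. As deposited, Cyp7a1 was at -3.52 on replicate 1 and between -1.73 and -1.38 on the others. Pi4k2a was at -0.81 on replicate 1, Nr1h5 at -0.62 and Terf1 at 1.22 on replicate 4. On replicate 3, Vsig4 was at -1.18 against 1.76 to 2.05 on the others, and Ccnb2 at -0.03. The median of the acute phase list was -0.81 and that of the stellate cell and matrix list -0.33 on replicate 3. On the untreated array with the wild type number of replicate 3, Vsig4 was at -1.17 and these medians were -0.60 and -0.15. Turned, Prph2 was at -0.35 on replicate 3, and on replicate 4 the median of the growth hormone signalling list was -0.36 and that of the bile acid list 0.20.

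Among the genes checked, many of them named for a small p, 3 had every treated array on one side of 0 and every untreated array on the other as deposited. How many of all genes do so was not counted, so this count has no background. Treated minus untreated differences were 0.75 for Isoc2a, 1.11 for Susd4 and -0.74 for Nr1h5. In limma none of these differences passed an adjusted p of 0.05, where the smallest over all genes was 0.974.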

How the results depend on the processing

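As deposited, 0 genes passed for treated mutants over wild type in limma under all alternatives except those that left out arrays, which gave 0 to 8 genes. They were 3 without treated replicate 2, 6 without the arrays of number 2 and 1 without those of number 3. Without number 4 there were 8, all below wild type, among them the macrophage genes Marco and Spic. Turned, 10 genes became 0 in the treated arrays alone, 4 with medians of features, 35 among 33653 single features and 0 of the 8343 genes with 2 or more features. Leaving out arrays gave 0 to 116 genes, with 116 only without number 4, 115 of them higher, Marco, Cd5l and Lyz2 among them. The cause of these changes was not tested. The count was 8 without a dye coefficient, 7 with scaled arrays and 11 with robust eBayes. With the number as a replicate block, which pairs arrays through a shared wild type number, the counts were 0 as deposited and 11 turned, so no call was lost, at block correlations of 0.129 and 0.0932. For treated minus untreated the block gave 0 genes in both readings, with the smallest adjusted p at 0.446 as deposited against 0.974 without it. Its count at an unadjusted p under 0.05 was 1236 against 817. Scaled arrays turned the sign of list medians near 0, to 0.01 for stellate cell and for DNA repair genes and -0.02 for fatty acid synthesis as deposited. A check of 178 other values covered counts of genes and some of the genes named here, not list medians. Over their alternatives 0 changed direction, 97 comparisons lost and 12 gained the threshold, 10 counts moved by over 1.5 times and 2433 did neither. Marco, outside this check, gave 1.44, 1.29, -4.75 and 4.79 as deposited and stood at -1.72 without number 4. Signal over background is unknown, so noise in dim features could not be limited.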
